A study of Mus musculus with 5 samples.

Results

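Amino acid and peptide transporters of the kidney cortex were examined in Fnip1 null and wildtype mice. They were taken by gene symbol: every gene of the count tables named as a member of the solute carrier families Slc1, Slc3, Slc6, Slc7, Slc15, Slc36, Slc38 or Slc43, with antisense transcripts and the cystine-glutamate exchanger Slc7a11 left out. This gave 63 of 24421 genes, in 8 families. The rule uses gene symbols alone, but the transporters were chosen with earlier results of these data known. The proximal tubule recovers nearly all filtered amino acids and small peptides. Carriers in its brush border, many driven by sodium or protons, take them up from the tubular fluid, and exchangers and uniporters on the blood side release them. Several of these carriers are pairs of a heavy chain (Slc3a1 or Slc3a2) and a light chain of the Slc7 family, and many are arranged along the tubule, with high-capacity carriers in the early segment (S1) and high-affinity carriers in the late segment (S3).

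RNAseq counts per gene came from the kidney cortex of 5 C57BL6J mice, 1 library each. Mice 8637, 9210 and 9121 were Fnip1 null, and mice 9055 and 9056 were wildtype. The Fnip1 null mice are Fnip1-/- in every tissue and come from ENU chemical mutagenesis, and the wildtype mice are labelled Fnip1+/+. The study's text gives the controls as Fnip1+/- in some places and as wildtype in others, and they are called wildtype here after the labels. The deposited table of mouse 9210 bears its number with the digits in another order, and the number of the label is used. The mice were adults, no drug treatment is labelled, and their sex is not in the labels. Loss of Fnip1, a binding partner of folliculin and AMPK, was the only labelled difference. The reads on genes were 15799114 to 19132145 per mouse, of which the 63 transporters held 0.538 to 0.6004%. Levels are given as normalized CPM, counts scaled to a common library size by TMM normalization, and 3 counts in a mouse stand for 0.158 to 0.186 normalized CPM.

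Fnip1 itself was at 20.98, 16.9 and 16.0 normalized CPM in the Fnip1 null mice (in the order 8637, 9210, 9121, kept throughout) and at 51.8 and 48.7 in the wildtype mice (9055, 9056), so no library went against its genotype label. Mouse 9121 stood apart in another way. It had 5954 counts of Xist, the transcript of the inactive X chromosome, and 0 to 7 counts of each of the 4 Y-linked genes Ddx3y, Eif2s3y, Kdm5d and Uty, whereas each of the other 4 mice had 3 to 24 counts of Xist and at least 291 of each Y-linked gene. Mouse 9121 thus carried the pattern of a female, and each of the others that of a male, and results that turn on this mouse are given with and without it. Genes known as male-biased in mouse kidney (Slco1a1, Cyp4b1, Cyp2e1 and Slc22a30) were lower in all 3 Fnip1 null mice than in both wildtype mice, in 4 of 4 cases, and those known as female-biased (Cyp4a14, Prlr and Slc22a29) were higher, in 3 of 3 cases. This order also held among the mice with the male pattern alone. Of all genes, 23.0% were below and 22.9% above wildtype in every Fnip1 null mouse. At an FDR of 5%, edgeR's exact test passed all 3 female-biased genes and none of the 4 male-biased genes (adjusted p = 0.118 to 0.295). Without mouse 9121 it passed 3 and 2 of them. It passed 9.77% of all genes with all mice and 8.33% without mouse 9121. Both S1 markers (Slc5a2 and Slc5a12) were above wildtype in every Fnip1 null mouse, with log2 fold changes of 0.26 and 0.63. All 4 S3 markers (Atp11a, Slc22a13, Cyp7b1 and Slc5a8) had negative log2 fold changes, from -2.25 to -0.37, although Slc22a13 overlapped between the genotypes. That overlap came from mouse 9121, at 94.6 normalized CPM. Slc22a13 was at 56.7 and 55.9 in mice 8637 and 9210 and at 90.9 and 87.5 in wildtype mice. Without mouse 9121 all 4 S3 markers lay below both wildtype mice, with log2 fold changes from -1.69 to -0.66. The 6 general proximal tubule markers, among them Lrp2 and Slc34a1, ranged from -0.59 to -0.30. Leukocyte markers had a positive log2 fold change for 10 of 11 tested, with a median of 1.22, or 0.87 without mouse 9121. Their summed level was 329 to 771 normalized CPM in Fnip1 null mice against 229 and 328 in wildtype mice. Cd74 held much of it, at 214, 279 and 528 in Fnip1 null and at 197 and 120 in wildtype mice. The marker with a negative log2 fold change was Csf1r (-0.61), which was below wildtype in every Fnip1 null mouse. Markers of the loop and distal tubule turned on mouse 9121. Their median log2 fold change was 0.17 (4 of 5 positive) with it and -0.05 (2 of 5 positive) without it. In both cases 2 of 5 were above wildtype in every Fnip1 null mouse. Collecting duct (4 of 4) and podocyte (2 of 2) markers were higher in every Fnip1 null mouse. In such bulk tissue, fewer cells of a type and less RNA per cell cannot be told apart.

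Of the 63 transporters, 59 had at least 1 count and 44 passed the filter on low counts. No transporter passed it through the Fnip1 null mice alone. Among the 44, 17 had all 3 Fnip1 null mice above both wildtype mice, which was 38.6% against 22.9% of all 13874 genes tested. A further 14 had all Fnip1 null mice below both wildtype mice, 31.8% against 23.0% of all genes. The genotypes overlapped for the other 13. The median size of the log2 fold change, whatever its sign, was 0.49 over the tested transporters and 0.22 over all genes, and the signed medians were 0.23 and 0.00. Thus the transporters lay on both sides of wildtype, and mostly by less than 2-fold.

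Differential expression was called with edgeR's quasi-likelihood test where a gene passed an FDR of 5% and differed 2-fold or more. By this rule 1 transporter was called, Slc38a1, which was higher, and none was lower. Of all genes, 0.526% were called, and 0.678% passed the FDR alone, again with Slc38a1 as the only transporter. At an unadjusted p under 0.05 the same test gave 24 transporters, or 54.5% of those tested against 25.1% of all genes. Adjusted p-values between 0.0644 and 0.0985 were given to 12 others, of which 7 were higher and 5 lower, so that 29.5% of the tested transporters and 6.76% of all genes passed an FDR of 10%. The exact test of edgeR, which does not carry the uncertainty of each gene's dispersion into its p-value, passed 12 transporters at an FDR of 5% (7 higher and 5 lower), or 27.3% of those tested against 9.77% of all genes. With the 2-fold threshold it called 3 higher (Slc38a1, Slc7a12 and Slc7a2) and 1 lower (Slc1a4), or 9.09% against 4.07% of all genes. At an FDR of 5% the likelihood ratio test passed 15 transporters, or 34.1% against 10.6% of all genes, and DESeq2 passed 17, or 38.6% against 10.4% of the genes to which it gave an adjusted p. The smallest p-value that permuting 3 mice against 2 can reach is 0.1, so no exact permutation p is given for single genes.

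**Figure D1:**
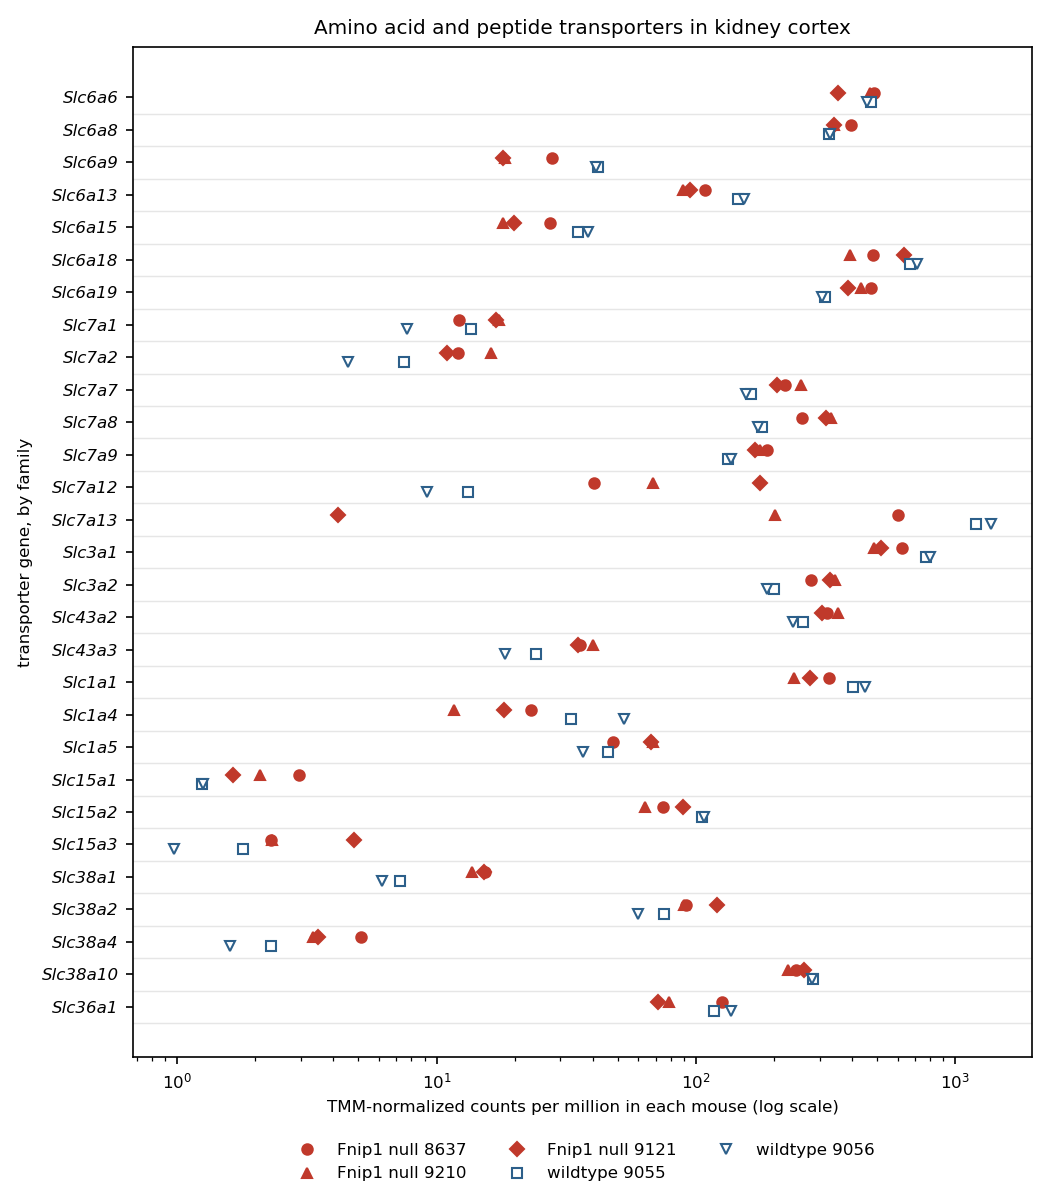
Normalized CPM (log scale, horizontal) of 29 transporters (vertical, by family) in each mouse, with filled symbols for Fnip1 null mice and open symbols for wildtype mice. For Slc7a13 the 3 Fnip1 null mice are spread from 4.17 to 600.2 below both wildtype mice, while for Slc38a1 they lie within 13.7 to 15.4, above both wildtype mice at 6.18 and 7.21.

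The apical carriers of neutral amino acids were split by direction. Slc6a19 encodes the main sodium-driven carrier of neutral amino acids in the early tubule, the protein lost in Hartnup disorder. It was at 474, 434 and 386 normalized CPM in Fnip1 null and at 315 and 306 in wildtype mice. All Fnip1 null mice were above both wildtype mice, with a log2 fold change of 0.47 ± 0.121 (SE; edgeR quasi-likelihood test, adjusted p = 0.102). Slc6a18, its relative of the later tubule segments, was at 484, 394 and 634 normalized CPM in Fnip1 null and at 667 and 712 in wildtype mice. Here all Fnip1 null mice were lower than either wildtype mouse, with mouse 9121 nearest to them. The log2 fold change was -0.45 ± 0.205 (SE, adjusted p = 0.228), and without mouse 9121 it was -0.65 (adjusted p = 0.0930 by the quasi-likelihood test and 0.00886 by the exact test). Without that mouse the exact test also passed Slc6a19 (adjusted p = 0.0145).

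Slc1a5 encodes a sodium-dependent exchanger of glutamine and other neutral amino acids. Its level was 47.9, 68.5 and 67.4 normalized CPM in Fnip1 null and 46.0 and 36.7 in wildtype mice, so that mouse 8637 lay just above the higher wildtype mouse (log2 fold change 0.57 ± 0.189, SE, adjusted p = 0.143). Slc36a1 encodes a proton-coupled carrier of small neutral amino acids that is also found in lysosomes. It was at 126, 78.6 and 71.3 normalized CPM in Fnip1 null and at 117 and 136 in wildtype mice. The genotypes overlapped, since mouse 8637 lay between the wildtype mice while the other Fnip1 null mice lay below them. Slc36a2, the proton-coupled carrier of glycine and proline, had 3, 46 and 25 counts in Fnip1 null and 0 and 4 counts in wildtype mice, and was too low to be tested with all mice. Without mouse 8637 it entered the test only through its counts in the Fnip1 null mice, so no fold change is given. In the list of apical neutral and imino acid carriers, 2 of the 4 tested were above and 1 below wildtype in every Fnip1 null mouse. The shares over all genes were 22.9% and 23.0%. None of the 4 passed the exact test, against 9.77% of all genes. Collectrin (Tmem27), a membrane protein that brings Slc6a19 and Slc6a18 to the surface, had a log2 fold change of -0.18 (adjusted p = 0.554). The imino acid carrier Slc6a20b, which the symbol rule does not take, was at 194, 144 and 121 normalized CPM in Fnip1 null and at 247 and 270.3 in wildtype mice, with a log2 fold change of -0.76 ± 0.194 (SE; adjusted p = 0.102, exact test 0.0177).

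The heteromeric carriers of dibasic amino acids and cystine are those that fail in cystinuria. Their heavy chain Slc3a1 (chr17:85028376-85064236 on GRCm38, plus strand) was the second highest transporter per kb of exon by the mean over all 5 mice. It was at 622, 486 and 515 normalized CPM in Fnip1 null and at 773 and 797 in wildtype mice. The Fnip1 null mice were all lower than either wildtype mouse (log2 fold change -0.54 ± 0.143, SE, adjusted p = 0.105, exact test 0.0510). The light chain Slc7a9 (chr7:35448796-35466036, plus strand), which pairs with Slc3a1 in the early tubule, went the other way. It was at 189, 177 and 168 normalized CPM in Fnip1 null and at 133 and 137 in wildtype mice, a log2 fold change of 0.40 ± 0.0903 (SE, adjusted p = 0.0857, exact test 0.0671).

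Slc7a13 (chr4:19818725-19842218, plus strand) encodes the other light chain known to pair with Slc3a1, a carrier of cystine, aspartate and glutamate in the late tubule. By the mean over all 5 mice it was the highest transporter per kb of exon, a place it owed to the wildtype mice. Its mean level per kb was 603 normalized CPM in wildtype and 125 in Fnip1 null mice, where that of Slc3a1 was 346 and 238. It was at 1206 and 1377 normalized CPM in the wildtype mice and at 600.2, 202 and 4.17 in the Fnip1 null mice. The genotypes did not overlap, but the Fnip1 null mice differed far more among themselves than the wildtype mice did. Mouse 9121, the mouse with the female pattern, had 79 counts where the wildtype mice had 19416 and 24066. The log2 fold change was -2.27 with an SE of 1.38 (adjusted p = 0.347, exact test 0.291). Without mouse 9121 it was -1.69 (adjusted p = 0.113 by the quasi-likelihood test and 0.00565 by the exact test), and without mouse 8637 it was -3.64 (adjusted p = 0.118). Slc7a13 is known as a male-biased gene of the mouse kidney.

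Slc7a12 (chr3:14480697-14505830, plus strand) encodes a light chain related to the small neutral amino acid exchangers and is known as a female-biased gene of the mouse kidney. Its order over the mice was the reverse of that of Slc7a13. It was at 40.5, 68.3 and 176 normalized CPM in Fnip1 null and at 13.2 and 9.15 in wildtype mice. The genotypes did not overlap, and mouse 9121 was the highest. The log2 fold change was 3.09 ± 0.668 (SE), an 8.5-fold difference, and the adjusted p was 0.0803 by the quasi-likelihood test and 0.000298 by the exact test. Among the mice with the male pattern alone, that is without mouse 9121, the log2 fold change was 2.28, and the gene passed the quasi-likelihood test (adjusted p = 0.0251). The sex-biased genes and the S3 markers other than Slc22a13 moved in the same mice, as the plot of these genes beside Slc7a13 and Slc7a12 shows. Their part in these levels was not tested.

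**Figure D2:**
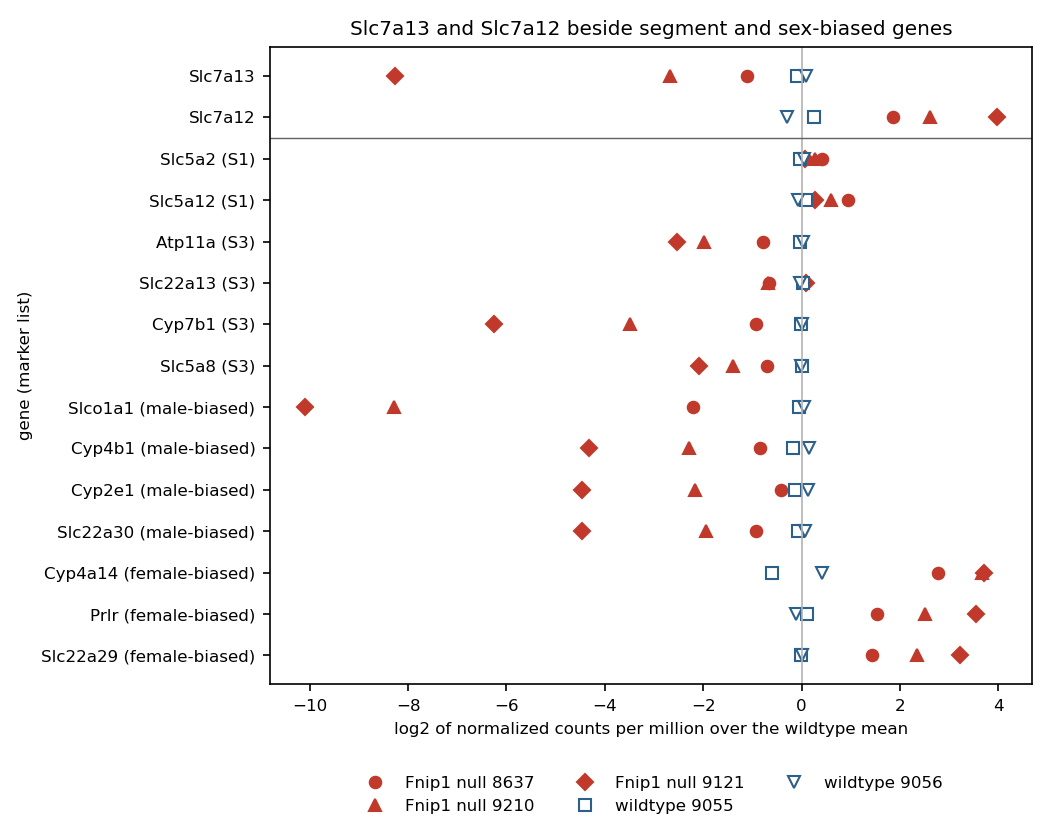
Log2 of each mouse's normalized CPM over the mean of the wildtype mice (horizontal) for Slc7a13, Slc7a12 and the genes of the S1, S3, male-biased and female-biased marker lists (vertical), with filled symbols for Fnip1 null mice and open symbols for wildtype mice. For Slc7a13, Slc7a12, the male-biased genes and the S3 markers other than Slc22a13, mouse 8637 lies nearest to the wildtype mice and mouse 9121 farthest, with mouse 9210 between them.

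A ratio of 2 genes within a library does not depend on the scaling between libraries. The pairs were chosen after their values were seen, so the ratios are a description. Per kb of exon, Slc7a9 was at 0.257, 0.309 and 0.277 of the level of its heavy chain Slc3a1 in Fnip1 null mice and at 0.146 in each wildtype mouse, a 1.93-fold difference of the means. The ratio of the blood-side heavy chain Slc3a2 to the brush-border heavy chain Slc3a1 was 0.286, 0.456 and 0.412 in Fnip1 null and 0.167 and 0.152 in wildtype mice. The ratio of Slc6a19 to Slc6a18 was 0.864, 0.972 and 0.537 in Fnip1 null and 0.417 and 0.379 in wildtype mice. In each of these pairs every Fnip1 null mouse had a higher ratio than both wildtype mice. Mouse 9121 lay between the other Fnip1 null mice in the first 2 pairs and nearest to wildtype in the last. About 26.5% of the exon bases of Slc3a1 overlap the gene Prepl, and the library kit did not mark strand, so reads from that stretch cannot be assigned to either gene.

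**Figure D3:**
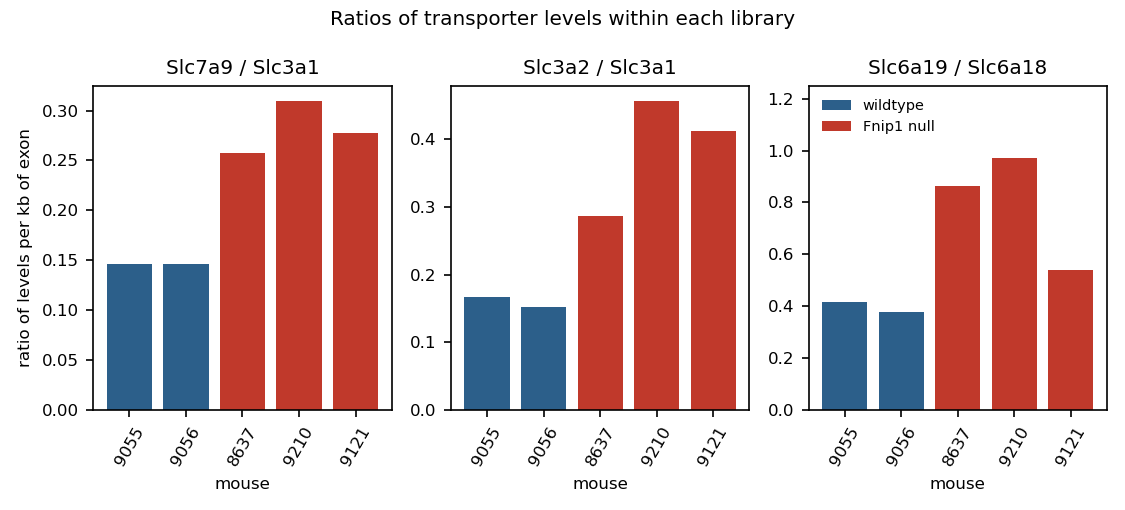
Ratio of the levels per kb of exon (vertical, from 0) of Slc7a9 to Slc3a1, Slc3a2 to Slc3a1 and Slc6a19 to Slc6a18 in each mouse (horizontal), with 1 bar per library. In all 3 panels the bars of the Fnip1 null mice are taller than those of both wildtype mice.

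The exchangers and uniporters of the blood side had higher fitted levels in Fnip1 null kidney. Of the 9 basolateral exchangers and uniporters listed, 8 were tested and 8 had a positive log2 fold change (0.27 to 0.80, median 0.49). In 6 of them all Fnip1 null mice were higher than either wildtype mouse, as for 22.9% of all genes. The exact test passed 4 at an FDR of 5%, against 9.77% of all genes. The list includes Slc43a3, a carrier of purine bases, which had the 0.80 and is 1 of the 6 and of the 4. The same counts, 8 of 8 positive, 6 above and 4 past the exact test (8.33% of all genes), were found without mouse 9121. The summed level of the list was 1122 to 1342 normalized CPM in Fnip1 null and 784 and 839 in wildtype mice. Slc3a2 (chr19:8706882-8723369, minus strand) encodes the heavy chain of the blood-side exchangers. It was at 277, 345 and 330.3 normalized CPM in Fnip1 null and at 200.1 and 189 in wildtype mice, a log2 fold change of 0.71 ± 0.124 (SE, adjusted p = 0.0644, exact test 0.00308).

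Slc7a8 encodes a light chain of Slc3a2 that exchanges neutral amino acids at the blood side. It was at 256, 332 and 317 normalized CPM in Fnip1 null and at 180.2 and 174 in wildtype mice. The lowest Fnip1 null mouse was thus well above the higher wildtype mouse (log2 fold change 0.77 ± 0.134, SE, adjusted p = 0.0644, exact test 0.00177). Slc7a7 encodes the light chain that exports dibasic amino acids and is lost in lysinuric protein intolerance. It was at 219.9, 255 and 205 normalized CPM in Fnip1 null and at 164 and 156 in wildtype mice (log2 fold change 0.50 ± 0.118, SE, adjusted p = 0.0903, exact test 0.0404). Slc43a2, a uniporter of large neutral amino acids, was at 321, 354 and 306 normalized CPM in Fnip1 null and at 258 and 238 in wildtype mice. Its groups did not overlap either, and its adjusted p was 0.107 (log2 fold change 0.40). Slc43a3, which carries purine bases rather than amino acids, was at 35.9, 40.1 and 35.2 normalized CPM in Fnip1 null and at 24.1 and 18.4 in wildtype mice (log2 fold change 0.80 ± 0.147, SE, adjusted p = 0.0668, exact test 0.000916). Slc7a6 had a log2 fold change of 0.48 with groups that did not overlap, and Slc7a5 and Slc43a1 overlapped between the genotypes. The aromatic amino acid uniporter Slc16a10, of another family, was also above wildtype in every Fnip1 null mouse (log2 fold change 0.34, adjusted p = 0.106). Endothelial markers (3 of 3 positive, median log2 fold change 0.65, or 0.48 without mouse 9121) and 10 of 11 leukocyte markers also had positive log2 fold changes. The summed level was highest in mouse 9210 for this list and in mouse 9121 for both marker lists. The part of these cell types in the list was not tested.

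Cationic amino acid carriers of the Slc7 family were low in these libraries. Slc7a2, which brings arginine and lysine into cells, was at 12.1, 16.2 and 10.9 normalized CPM in Fnip1 null and at 7.52 and 4.58 in wildtype mice. All Fnip1 null mice were above both wildtype mice, with a log2 fold change of 1.11 ± 0.279 (SE, adjusted p = 0.0985, exact test 0.00968). Slc7a1, the widely expressed carrier of this kind, was at 12.2, 17.4 and 17.0 normalized CPM in Fnip1 null and at 13.6 and 7.72 in wildtype mice, with mouse 8637 between the wildtype mice. Slc7a4 was lower in every Fnip1 null mouse (log2 fold change -0.40, adjusted p = 0.173). Slc7a3 and Slc7a14 were not tested, with at most 13 counts in any mouse.

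The Slc1 family, carriers of acidic and small neutral amino acids, had 5 of 7 members tested. Of these, 2 were below and 1 above wildtype in every Fnip1 null mouse, against 23.0% and 22.9% of all genes. Slc1a1 encodes the main glutamate carrier of the brush border. It was at 327, 239 and 277 normalized CPM in Fnip1 null and at 403 and 451 in wildtype mice, a log2 fold change of -0.60 ± 0.15 (SE, adjusted p = 0.0982, exact test 0.0306). About 31.9% of its exon bases overlap the gene 4430402I18Rik. Slc1a4, an exchanger of alanine, serine and cysteine, was at 23.1, 11.7 and 18.3 normalized CPM in Fnip1 null and at 33.0 and 53.0 in wildtype mice. It was the transporter with the largest decrease that passed the exact test, 2.43-fold (log2 fold change -1.28 ± 0.311, SE, adjusted p = 0.0954, exact test 0.00344). Thus Slc1a4 and Slc1a5, which share much of their substrate range, lay on opposite sides of wildtype. The glial glutamate carriers Slc1a2 and Slc1a3 did not exceed 7.04 normalized CPM in any mouse and overlapped between the genotypes.

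Among the Slc6 carriers of neurotransmitters and osmolytes, 8 of the 15 in the count tables were tested. Of these, 3 passed the exact test, all of them lower in Fnip1 null kidney, against 9.77% of all genes. Slc6a9, a glycine carrier, was at 27.9, 18.4 and 18.01 normalized CPM in Fnip1 null and at 41.9 and 41.4 in wildtype mice. It was lower by 0.96 ± 0.203 on the log2 scale (SE, log2 fold change -0.96, adjusted p = 0.0791, exact test 0.00155), although 30.3% of its exon bases overlap other genes. Slc6a13, a carrier of GABA, betaine and taurine on the blood side of the proximal tubule, was at 108, 88.9 and 95.0 normalized CPM in Fnip1 null and at 145 and 153 in wildtype mice (log2 fold change -0.61 ± 0.108, SE, adjusted p = 0.0644, exact test 0.00291). Slc6a15, a carrier of branched-chain amino acids and proline, was at 27.4, 18.01 and 19.9 normalized CPM in Fnip1 null and at 35.2 and 38.5 in wildtype mice (log2 fold change -0.76 ± 0.188, SE, adjusted p = 0.0979, exact test 0.0115). For these 3 genes the Fnip1 null mouse nearest to wildtype was 8637.

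The most abundant osmolyte carriers had small fold changes. Slc6a6, the taurine carrier, was at 488, 470.2 and 352 normalized CPM in Fnip1 null and at 473 and 456 in wildtype mice. The genotypes overlapped, and the sign of the log2 fold change (-0.09) turned to positive without mouse 9121 (0.04) or with scaling by library size only (0.07). Slc6a8, the creatine carrier, was at 395, 341 and 342 normalized CPM in Fnip1 null and at 325 and 328 in wildtype mice (log2 fold change 0.14 ± 0.109, SE, adjusted p = 0.461). Slc6a12, the betaine and GABA carrier of the medulla, was at 0.295, 1.78 and 5.65 normalized CPM in Fnip1 null and at 0.870 and 0.343 in wildtype mice. Its log2 fold change of 2.12 had an SE of 1.15, and it was 0.79 without mouse 9121. Slc6a4 and Slc6a17 overlapped between the genotypes with all mice. The log2 fold change of Slc6a4 was 0.31, and -0.03 without mouse 9121. That of Slc6a17 was -0.07, and -0.33 without mouse 9121. In mice 8637 and 9210 Slc6a17 was at 25.3 and 24.6 normalized CPM, below the wildtype mice at 36.7 and 26.1.

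Peptide carriers of the Slc15 family also lay on both sides of wildtype. Slc15a2, the high-affinity carrier of the later proximal tubule, was at 74.6, 63.9 and 88.9 normalized CPM in Fnip1 null and at 106 and 108 in wildtype mice. Both wildtype mice were above all Fnip1 null mice (log2 fold change -0.49 ± 0.143, SE, adjusted p = 0.117, exact test 0.0558). Without mouse 9121 the log2 fold change was -0.62 and the exact test passed it (adjusted p = 0.00147). Slc15a1, the low-affinity carrier of the early tubule, was far lower in level, at 2.95, 2.08 and 1.64 normalized CPM in Fnip1 null and at 1.24 and 1.26 in wildtype mice, which are 31 to 50 and 20 to 22 counts. Its groups did not overlap (log2 fold change 0.82 ± 0.345, SE, adjusted p = 0.203). Slc15a3, a peptide and histidine carrier of lysosomes in immune cells, was at 2.30, 2.32 and 4.81 normalized CPM in Fnip1 null and at 1.80 and 0.972 in wildtype mice (log2 fold change 1.19 ± 0.475, SE, adjusted p = 0.188). It was 0.74 without mouse 9121, the mouse in which the summed level of the leukocyte markers was highest. About 28.1% of its exon bases overlap the gene Tmem132a. Slc15a4, its widely expressed relative, had a log2 fold change of -0.14.

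The peptidases of the brush border, which make the free amino acids and small peptides that these carriers take up, also went both ways. Of 8 tested, 4 were below and 3 above wildtype in every Fnip1 null mouse, against 23.0% and 22.9% of all genes. The exact test passed 3 at an FDR of 5%, all lower, against 9.77% of all genes. The subunits of meprin, Mep1a and Mep1b, had log2 fold changes of -1.08 and -1.12, and Mep1b was called by the quasi-likelihood test (adjusted p = 0.0406). Ggt1, which starts the breakdown of glutathione at the brush border, had a log2 fold change of -1.01 (adjusted p = 0.0871, exact test 0.00303). Mme, Dpep1 and Dpp4 had positive log2 fold changes of 0.39, 0.39 and 0.41 (adjusted p = 0.116, 0.131 and 0.0985).

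The Slc38 family carries glutamine, alanine and other small neutral amino acids into and out of cells, and 8 of its 11 members were tested. Slc38a1 (chr15:96571418-96642913, minus strand), a sodium-coupled glutamine carrier, was at 15.4, 13.7 and 15.3 normalized CPM in Fnip1 null and at 7.21 and 6.18 in wildtype mice. The Fnip1 null mice lay close together, all above both wildtype mice. The log2 fold change was 1.14 ± 0.15 (SE), a 2.21-fold increase, with an adjusted p of 0.0447 by the quasi-likelihood test and 4.84e-06 by the exact test. It was past the same threshold without mouse 9121 (log2 fold change 1.12, adjusted p = 0.0451) and without mouse 8637 (1.11, adjusted p = 0.0117). Without mouse 9210, or with a single wildtype mouse, its adjusted p was 0.173 to 0.529, settings in which no transporter passed. Slc38a1 is expressed in many cell types, including leukocytes. Leukocyte markers also had positive log2 fold changes for 10 of 11 tested, and the part of leukocytes in this increase was not tested.

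Slc38a2, a carrier of the same kind that cells raise when amino acids are short, was at 92.1, 89.9 and 120.2 normalized CPM in Fnip1 null and at 75.5 and 59.8 in wildtype mice (log2 fold change 0.57 ± 0.170, SE, adjusted p = 0.120). Slc38a4 was at 5.13, 3.33 and 3.49 normalized CPM in Fnip1 null and at 2.30 and 1.60 in wildtype mice (log2 fold change 1.03 ± 0.308, SE, adjusted p = 0.123). Both were above wildtype in every Fnip1 null mouse. Slc38a10, the most abundant member per kb of exon, was at 242, 227 and 261 normalized CPM in Fnip1 null and at 283 and 280.0 in wildtype mice, so that it was lower in every Fnip1 null mouse by a small amount (log2 fold change -0.21, adjusted p = 0.236). Slc38a3, the proximal tubule carrier that takes up glutamine for ammonia production, overlapped between the genotypes (log2 fold change -0.27 ± 0.226, SE).

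Lysosomal amino acid carriers are of interest because Fnip1 acts on the Rag GTPases, which relay amino acid levels at the lysosome. Of the 5 tested, 1 was above (Slc15a3) and 2 below wildtype (Slc38a9 and Slc15a4) in every Fnip1 null mouse. The shares over all genes were 22.9% and 23.0%. None passed the quasi-likelihood or the exact test with all mice, which passed 0.678% and 9.77% of all genes. Slc38a9, the arginine sensor of this machinery, was at 13.3, 14.4 and 13.3 normalized CPM in Fnip1 null and at 18.3 and 17.4 in wildtype mice (log2 fold change -0.39 ± 0.118, SE, adjusted p = 0.127). Slc38a7, the lysosomal exporter of glutamine, overlapped between the genotypes (log2 fold change 0.08). Of the lysosomal exporters of other families, the cystine carrier Ctns had a log2 fold change of 0.16 and the cationic amino acid carrier Pqlc2 one of -0.23. Slc36a4 overlapped as well (log2 fold change 0.20 ± 0.256, SE).

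Transporters known to be induced through the transcription factor ATF4 when amino acids are short did not move together. Of 7 tested, Slc3a2, Slc38a2 and Slc1a5 were above and Slc1a4 and Slc6a9 below wildtype in every Fnip1 null mouse, and Slc7a1 and Slc7a5 overlapped. Of all genes, 22.9% were above and 23.0% below wildtype in every Fnip1 null mouse. By the exact test 1 was higher (Slc3a2) and 2 were lower (Slc1a4 and Slc6a9), and 9.77% of all genes passed that test. The promoters, taken from RefSeq on GRCm38.p6 as the stretch from 250 bases before to 50 bases after each start, were searched on both strands for the core of the ATF4 composite element (TGATGNAA, where N is any base) and for the core of the CLEAR element bound by the TFEB family (TCACGTGA). Of the transporters, 44 had a promoter in the table. The first motif was found in 3 of them, or 6.82% against 4.51% of all genes with a promoter, and the second in 1, or 2.27% against 1.13% of all genes. The matches of expressed transporters are shown 5′ to 3′ on the gene's strand with the motif, or its reverse complement for Slc1a4, in capitals. They are printed because the genes that hold them lay on different sides of wildtype.
Slc1a4, chr11:20332699-20332728, minus strand: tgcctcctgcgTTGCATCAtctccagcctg
Slc7a7, chr14:54418067-54418096, minus strand: ccgcttgggctTGATGAAAggttcactggg
Slc7a7, chr14:54417927-54417956, minus strand: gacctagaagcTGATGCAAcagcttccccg
Slc36a1, chr11:55204325-55204354, plus strand: gggagccagcaTCACGTGAcagggcccgga
Slc1a4, with its match at position -4 from its start, was lower in Fnip1 null kidney by the exact test, and Slc7a7, with matches at positions -141 and -1 from one of its starts, was higher by that test. Slc36a1, with the CLEAR core at position -4, overlapped between the genotypes. Slc15a5, the other transporter with an ATF4 core, had 1 count in all libraries together. A match is a stretch of letters and was not tested for binding.

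Of the 19 transporters that were not tested, 4 had no count in any mouse, and the other 15 had some. Apart from Slc36a2, none of them exceeded 0.832 normalized CPM in a mouse. They include the neuronal carriers of dopamine, noradrenaline and proline in the Slc6 family, which are known for their expression in brain. Among the expressed transporters the levels were uneven. By the mean over all 5 mice, the 10 highest per kb of exon held 79.2% of the summed level per kb. They were led by Slc7a13, Slc3a1 and Slc6a18 (Slc3a1 first in Fnip1 null mice), each of them lower in every Fnip1 null mouse, and followed by Slc6a19 and Slc3a2, each of them higher.

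**Figure D4:**
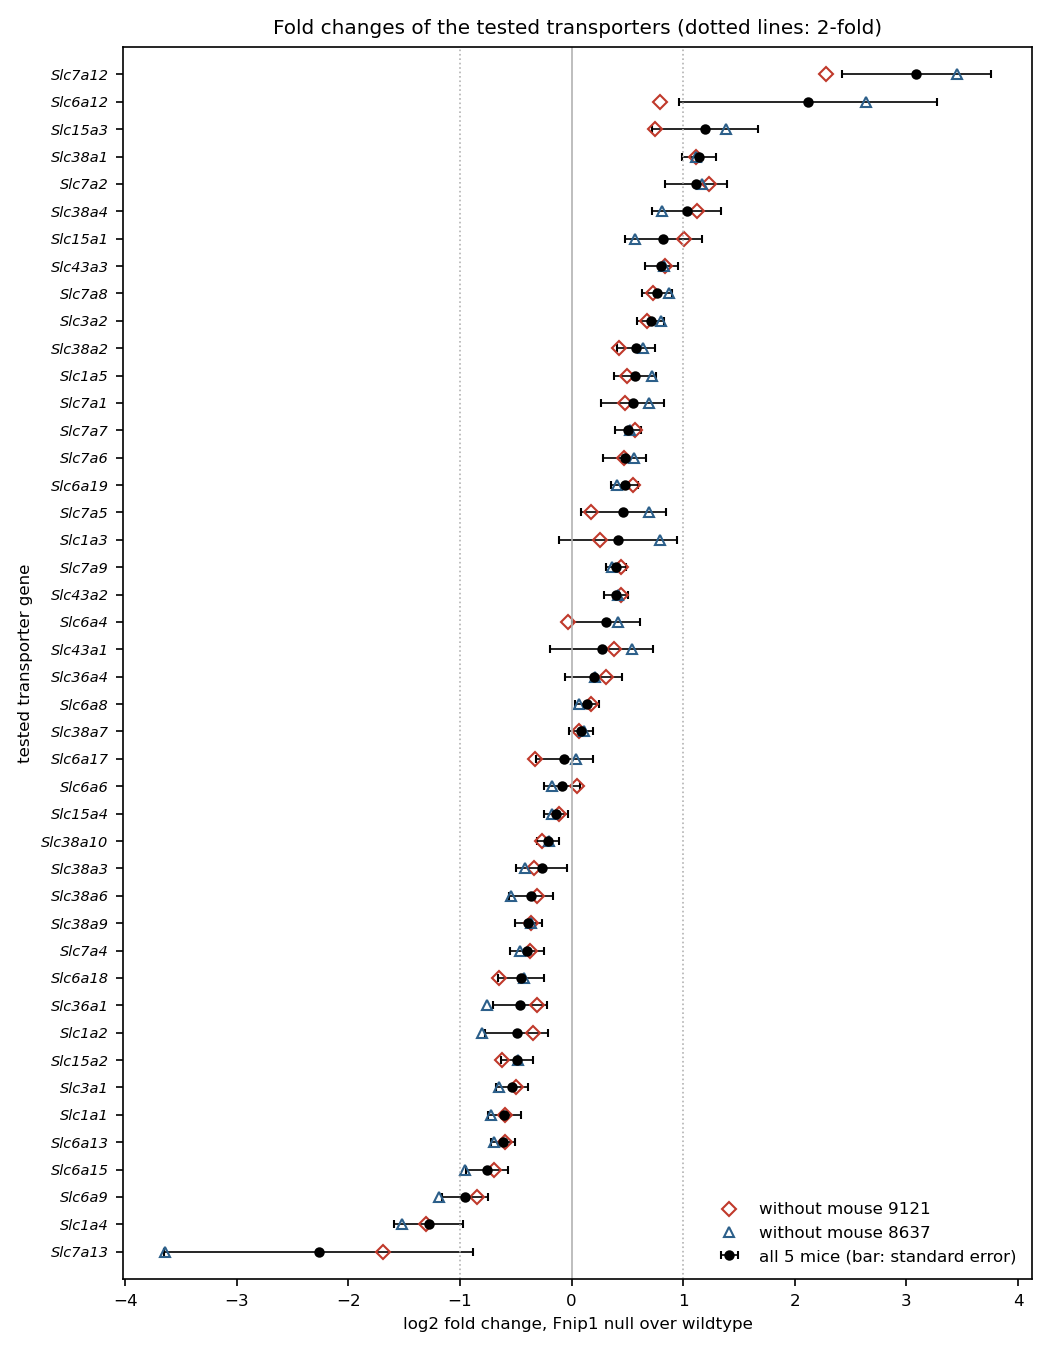
Log2 fold change of Fnip1 null over wildtype (horizontal) for the 44 tested transporters (vertical, sorted), with the standard error over all 5 mice and the values without mouse 9121 and without mouse 8637. The order runs from Slc7a13 at -2.27 to Slc7a12 at 3.09, and Slc38a1 at 1.14 is the only one past the FDR of 5% and 2-fold with all mice.

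The number of transporters that passed changed with the mice included. Mouse 8637 was the Fnip1 null mouse nearest to wildtype for 16 of the 31 transporters whose groups did not overlap, mouse 9121 for 10 and mouse 9210 for 5. Over all genes with groups that did not overlap, mouse 8637 was the nearest for 67.6%. Without mouse 8637 the quasi-likelihood test passed 20 of 46 transporters at an FDR of 5% (12 higher and 8 lower), while it passed 20.1% of all genes. One of the 20, Slc36a2, passed the filter on low counts only through the Fnip1 null mice, and of the other 45 transporters 19, or 42.2%, passed the test. The exact test without that mouse passed 26 transporters, Slc36a2 again among them, against 25.4% of all genes. All 12 of those passed with all mice were among the 26. Without mouse 9121 the quasi-likelihood test passed 2 transporters, Slc38a1 and Slc7a12, against 1.37% of all genes, and the exact test passed 17, or 38.6% against 8.33% of all genes, with all 12 of the earlier ones among them. The 5 others were Slc6a18, Slc7a13 and Slc15a2, which were lower, and Slc6a19 and Slc7a9, which were higher. Without mouse 9210 the exact test passed 5 transporters, or 11.1% against 2.94% of all genes, and the quasi-likelihood test none.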

How the data were processed

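Total RNA of flash-frozen kidney cortex was sequenced in 5 mice by the authors, with a library kit that does not mark strand. Per the labels and the study's methods, reads were filtered for quality, aligned to mm10 with TopHat2 2.1.0 and counted per gene symbol with HTSeq 0.6.1, and the deposited values are raw counts. The submitters' processing notes also name bcl2fastq 1.8.2. The HTSeq lines that name no gene were left out: of each table's total, reads in no gene were 9.91 to 10.8%, ambiguous reads 0.741 to 0.803% and alignments that were not unique 28.3 to 31.4%.

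Counts of all genes were fitted with edgeR 4.0.16, which uses limma 3.58.1, in R 4.3.3. Genes with fewer than 10 counts in more than 2 mice were left out. Libraries were scaled by TMM, the main test was the quasi-likelihood test of edgeR, and p-values were adjusted by Benjamini-Hochberg over 13874 genes. SE is that of the log2 fold change, taken as its size divided by the square root of the quasi-likelihood F statistic. The exact and likelihood ratio tests of edgeR, DESeq2 1.42.0, other scalings and filters, and fits without each mouse were alternatives, and the exact test without each mouse was added after the data were seen. P-values set the genotype difference against the spread between these mice within the genotypes, estimated with information shared over all genes. In the Fnip1 null group that spread includes mouse 9121, which had the female pattern. Positions and exon lengths are from GENCODE vM21 on GRCm38, and per kb means per kb of merged exons.

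Transporters named with values in every mouse passed either edgeR test at an FDR of 5%, had a mean of at least 1 normalized CPM with groups that did not overlap and a log2 fold change of at least 0.5 in size, were among the 10 highest per kb, were the highest of a role list, or were a heavy chain. Slc6a12, Slc36a2 and Slc38a9 are outside this rule and were added after their values were seen. The transporters, the role lists and the marker lists were chosen with earlier results of these data known. Values of some single genes are not reported here.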

Additional observations from a re-analysis of the deposited data

How the results depend on the processing

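Across 14 alternative settings each, 341 of the 406 values of the 29 named transporters kept their direction and their side of the FDR of 5%. A further 60 passed it only under the alternative, 17 of them without mouse 8637, and the 3 lost calls were those of Slc38a1. The sign turned for Slc6a6 alone, from -0.089 to 0.0665 with library size only and to 0.0445 without mouse 9121 (-0.175 without mouse 8637).

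At the FDR of 5% and 2-fold, the quasi-likelihood test called 1 transporter higher and 0 lower (0.526% of all genes). The exact test called 3 and 1 (4.07% of all genes). The likelihood ratio test called 4 and 1, DESeq2 3 and 1, and an FDR of 10% 3 and 1, with no share of all genes to set beside them. Leaving out 1 Fnip1 null mouse gave 0 to 4 higher and 0 to 2 lower, also without such a share. The 4 higher without mouse 8637 include Slc36a2, which passed the filter only through the Fnip1 null mice. With no fold threshold, 1 transporter passed (0.678% of all genes), against 12 with the exact test (9.77%) and 15 with the likelihood ratio test (10.6%). DESeq2 passed 17 (10.4% of the genes to which it gave an adjusted p), and library size only 2. The quasi-likelihood test passed 20 without mouse 8637, Slc36a2 among them (20.1% of all genes), 2 without 9121 (1.37%) and 0 without 9210. The exact test gave 26 without mouse 8637, Slc36a2 among them (25.4% of all genes), 5 without 9210 (2.94%) and 17 without 9121 (8.33%). The cause of these differences was not tested. A fit with a single wildtype mouse assumes that it varies like the Fnip1 null mice, so the counts of such fits are not given here.

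The median log2 fold change of the tested transporters was 0.23, and 0.40 with library size only, which also moved the median of all genes to 0.17. Relative to that median it was 0.23 in both cases. Without 1 mouse it ran from 0.067 (without 9210) to 0.28 (without 8637). The counts of transporters wholly above or below wildtype stayed within 1.5 times under all scalings, filters and mice left out that were tried. With fewer mice it is easier for groups not to overlap, so the counts without a mouse are no check on these numbers. No share of all genes is given for those settings. No paired analysis was possible because the mice carry individual numbers that the genotypes do not share. The 19 transporters with few or no counts were not tested.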
